A study of Zea mays with 10 samples.

Results

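The late-night-high transcripts of B73 maize seedlings were 51 of 17621 probe sets on the Affymetrix Maize Genome Array, an oligonucleotide array on which each probe set is designed to report a transcript or a group of related ones. They were chosen on the deposited signals, after values below 1 were set to 1 and the array's own control probe sets were left out. A member had at least 100 at both ZT20 and ZT44, and each of these signals was at least 1.4 times both ZT8 and ZT32. In addition ZT8 had to exceed 0.6 times ZT32, and a probe set whose lowest signal from ZT28 to ZT44 was at least 1.5 times its highest from ZT0 to ZT8 was to be left out, which removed 0 probe sets. Of the 10679 probe sets with at least 100 at ZT20 and ZT44, 62 passed the 1.4-fold condition and 11 of these were dropped by the condition on ZT8 and ZT32. The 4 arrays at ZT8, ZT20, ZT32 and ZT44 therefore fixed the high late night and the low afternoon of every member, and their values are given as a description with no test.

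Seedlings of the inbred line B73 were entrained for 7 days in 12 h light and 12 h dark and then kept in constant light, where ZT0 is the hour of the first expected dawn. Leaf and shoot tissue was taken every 4 h, and each array carried cRNA of 3 pooled replicates of 5 seedlings. The arrays used cover ZT0 to ZT8 and ZT20 to ZT44 at these intervals, with 1 array per time point, and ZT12 and ZT16 were not analysed here. All groups thus share the inbred line and the entrainment, and differ in the hour of harvest and thus in the time spent in constant light. In the paper, harvest began at dawn following the transfer to constant light. ZT0 thus came after a dark night, and ZT24 after a night in light. Without replicate arrays, the only spread available is that between arrays taken 24 h apart. In whole aerial tissue, fewer cells of a type cannot be told apart from less RNA per cell.

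The plant circadian clock keeps many transcripts on a daily rhythm when light no longer changes, and the hours just before the expected dawn are the time at which many genes for the coming day's metabolism are known to be transcribed. Much of that metabolism sits in the plastid, which makes carotenoids, starch and fatty acids and reduces nitrite and sulphite with electrons from ferredoxin. The plastid also holds its own small genome, whose expression depends on RNA-binding proteins encoded in the nucleus.

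Of the 51 members, 27 carried a gene name or a function and 24 did not. The named share was 52.9%, against 20.4% of the 10679 probe sets tested. The function table was held only in part and that part lists mainly transcripts the study classed as cycling, so these shares do not describe gene content. Sorted by known role, after their values had been seen, the named members comprised 2 carotenoid enzymes, 2 enzymes of starch and flavonoid synthesis, 5 of nitrogen, sulphur and amino acid metabolism, 4 proteins of plastid gene expression, 4 membrane enzymes and proteases, 7 stress proteins and regulators and 3 others. A name marked as a match is that of the closest Arabidopsis protein and not of a maize gene. A further 2 unnamed members carry the same transcript cluster number and may report 1 gene.

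The members were of ordinary abundance and their swing was modest. Their mean signal over the 10 arrays had a median of 397, with a range of 93.7 to 2666, against a median of 485 for all probe sets tested. The late-night mean was 1.70 times the afternoon mean in the median member, with a range of 1.42 to 2.18. The margin, the lower of ZT20 and ZT44 over the higher of ZT8 and ZT32, had a median of 1.46 and reached 1.93, and 20 members had a margin of at least 1.5. Just inside the 1.4-fold limit were a putative zinc metalloprotease at 1.401, the SHY2 match at 1.404 and FAD8 at 1.404. Just outside it were pds1, the phytoene desaturase, at 1.399, the match of the chaperone CLPB3 at 1.389 and the match of the Clp protease subunit NCLPP7 at 1.387. For scale, 61 probe sets met the mirrored condition, with both afternoons above both late nights.

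In the median member, the log2 signal relative to the mean of its own 10 arrays was -0.06 at ZT0, -0.33 at ZT4 and -0.47 at ZT8, then 0.41 at ZT20, 0.11 at ZT24, 0.04 at ZT28, -0.25 at ZT32, 0.10 at ZT36, 0.04 at ZT40 and 0.36 at ZT44. The median over all probe sets tested stayed between -0.05 and 0.06, which does not give the spread of single probe sets. The highest of the 10 arrays was ZT20 for 24 members, ZT44 for 14, ZT0 for 9, ZT24 for 3 and ZT36 for 1. The lowest array was ZT8 for 27 members, ZT4 for 13, ZT32 for 5, ZT0 for 3, ZT36 for 2 and ZT40 for 1. Hence the members were not all at their highest in the late night, and the first dawn was the highest time point of 9 of them.

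**Figure D1:**
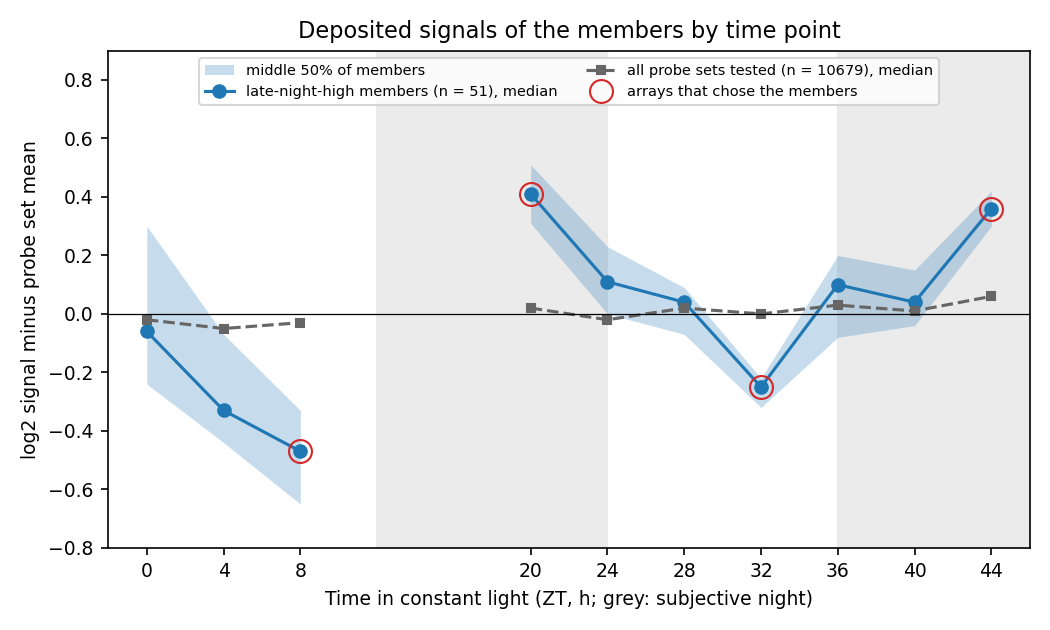
Median log2 deposited signal of the 51 members by time point in h of constant light, relative to each probe set's own mean, with the middle 50% of members as a band and all 10679 probe sets tested as a dashed line. Red rings mark the 4 arrays that chose the members. Outside these rings the median runs from -0.33 at ZT4 to 0.11 at ZT24.

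The 10 arrays differed in scale in a way that touches the selection. Array medians ranged from 187.6 at ZT4 to 213.5 at ZT44. The arrays of ZT20, ZT28 and ZT44 had the lowest signals of the bacteriophage cre spike-in, between 6326 and 7444, against 9063 to 10076 on the other 7 arrays. Their highest probe set signals, 10020 to 11900, were likewise below the 12561 to 16839 of the other arrays. With signals scaled to a common median, 22 of the 51 probe sets met the rule, and with quantile normalization 28 of them did. The median margin of the 51 was 1.39 after median scaling and 1.42 after quantile normalization, so the calls near the limit rest on the scale of the deposited values, and the part of array scale in the selection was not tested. Of the 27 named members, 12 met the rule under both scalings, namely zds1, starch branching enzyme3, caf2, TOR, constans1 and the GLU1, cp29, FTSH11, HSP70, HSFB2A, cadmium-induced and calcium-binding matches. With quantile normalization but not median scaling 4 did, which were crtRB1 and the TT7, CRR6 and MRP10 matches, and lkrsdh1 did with median scaling only. The other 10 met it under neither, and these were NIR, sir, caf1, FAD8, the zinc metalloprotease and the AOAT2, PTAC2, SHY2, PDR1 and appr-1-p matches.

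Leaf markers were present on all arrays. The summed signal of 26 mesophyll probe sets was 143000 to 157000 at ZT20 and ZT44, against 189000 to 205000 at ZT8 and ZT32, and 2 of the 26 had a mean below 50. The 5 bundle sheath probe sets summed to 25300 to 30700 in the late night, against 33100 to 33300 in the afternoon. The 2 meristem probe sets of the knox class summed to 438 to 459 in the late night, against 411 to 413 in the afternoon. The mesophyll markers are genes of kinds for which the paper reports circadian expression, among them light-harvesting proteins and pyruvate orthophosphate dikinase. ZT20 and ZT44 were also among the arrays whose brightest probe sets read lower. These sums are thus no measure of tissue content alone, and the parts of rhythm and array scale in them were not tested. No marker probe set was a member, and the part of tissue composition in the members' values was not tested.

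**Figure D2:**
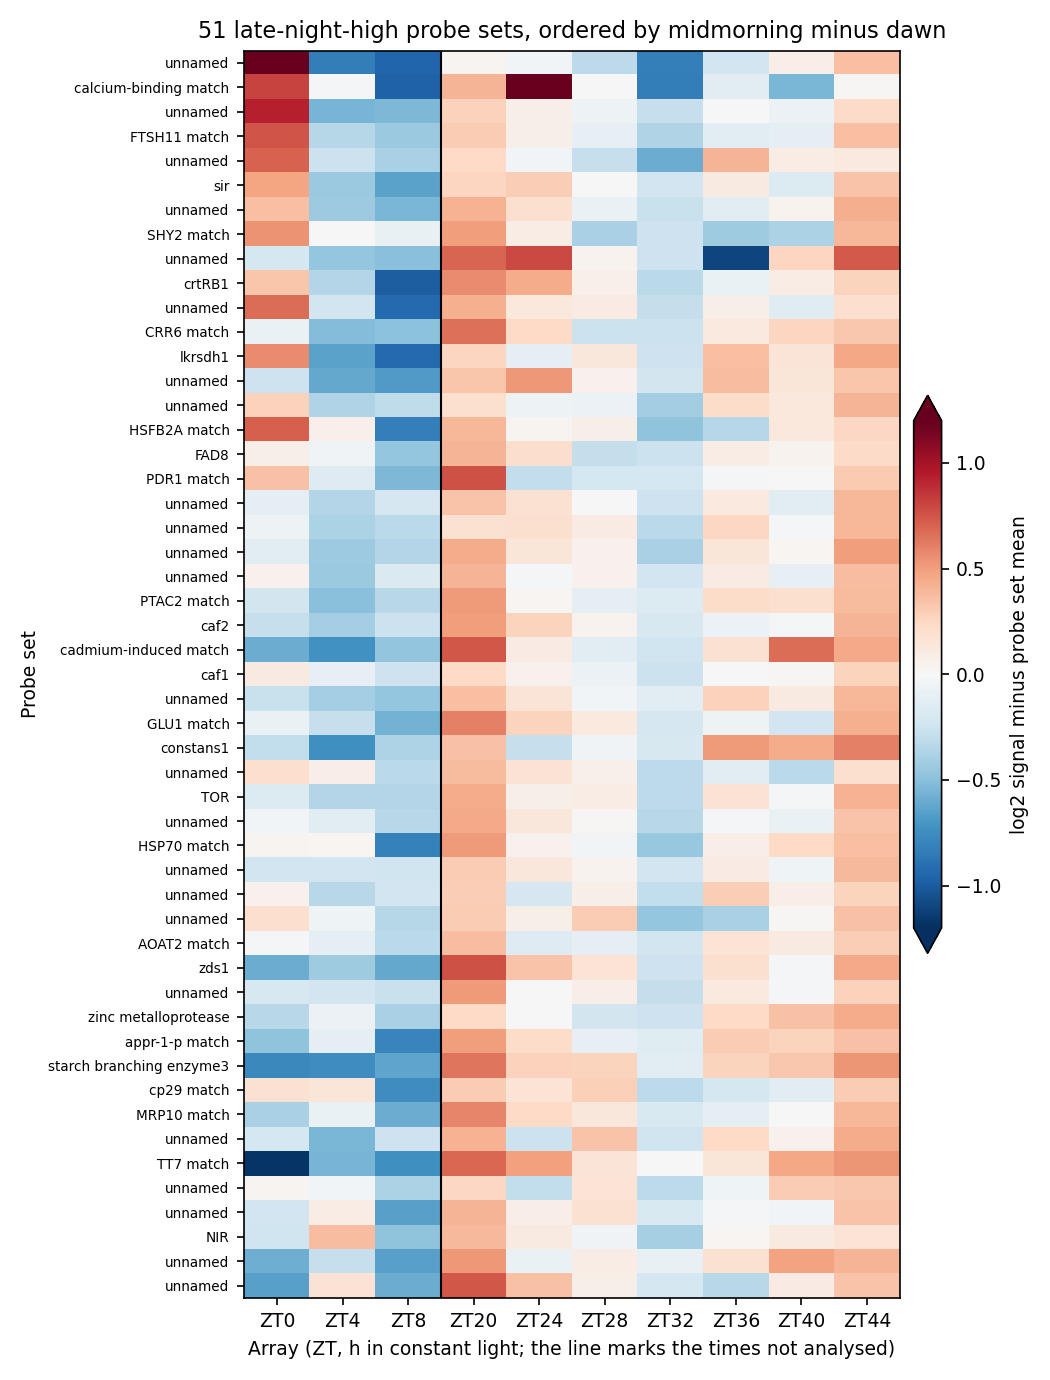
Log2 deposited signal of the 51 members, 1 per line, relative to the probe set's own mean, on the 10 arrays in time order. Members are ordered by midmorning minus dawn, and the vertical line stands where ZT12 and ZT16 were not analysed. Columns ZT20 and ZT44 are above the mean in most lines by selection, whereas ZT0 ranges from the highest to the lowest array.

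Both carotenoid members had their highest array in the first late night. Carotenoids harvest light and protect the photosystems, and some of them are precursors of abscisic acid. The gene zds1 encodes zeta-carotene desaturase, which acts on the way to lycopene. Its signal was 306, 345 and 303 at ZT0, ZT4 and ZT8, then 785, 589, 518, 389.6, 528, 455 and 636 every 4 h from ZT20 to ZT44. The first 3 arrays lay below all later ones, and both late nights were above all other time points. The crtRB1 probe set reports a beta-carotene hydroxylase, which makes zeaxanthin, and its values at the same times were 2559, 1598 and 1024, then 3011, 2782, 2121, 1629, 1927, 2169 and 2446. Its lowest arrays were the first afternoon and the first midmorning, and both dawns were above every time point but ZT20. The array's annotation names this probe set crtRB1, whereas the study's match table assigns it to another gene model, so the paralog it reports is uncertain.

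Neighbouring steps of the pathway differed in their margin. A probe set of phytoene synthase psy2, the entry enzyme, had 463 and 424 at ZT20 and ZT44, against 109 and 219 at ZT8 and ZT32. That is a margin of 1.94, but ZT8 was too far below ZT32 for the rule. A second probe set matched to the same gene model had 1648 and 1555 in the late night, against 960.1 and 1248 in the afternoon, a margin of 1.25. Phytoene desaturase pds1 had 1844 and 1722 in the late night, against 944 and 1231 in the afternoon. The match of zeaxanthin epoxidase, which acts after the hydroxylase, had 1356 and 1667 in the late night, against 2029.6 and 2092 in the afternoon. Its margin of 0.65 was on the opposite side of 1.

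Starch branching enzyme3 and the TT7 match shared a low first day. Branching enzymes introduce the branch points of starch. The signal of starch branching enzyme3 was 909.9, 926 and 1002 at ZT0, ZT4 and ZT8, then 2422, 1891, 1870.3, 1415, 1873, 1948 and 2242 from ZT20 to ZT44. TT7 is the Arabidopsis flavonoid 3'-monooxygenase, a cytochrome P450 that sets the hydroxylation of flavonoids. Its maize match read 642, 988 and 873, then 2346, 2045, 1619, 1447, 1612, 2014 and 2108. In both transcripts the 3 arrays of the first day were below all 7 later arrays, and the first dawn was the lowest array of all. Within the second day both nonetheless had their lowest array at ZT32 and their highest at ZT44.

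**Figure D3:**
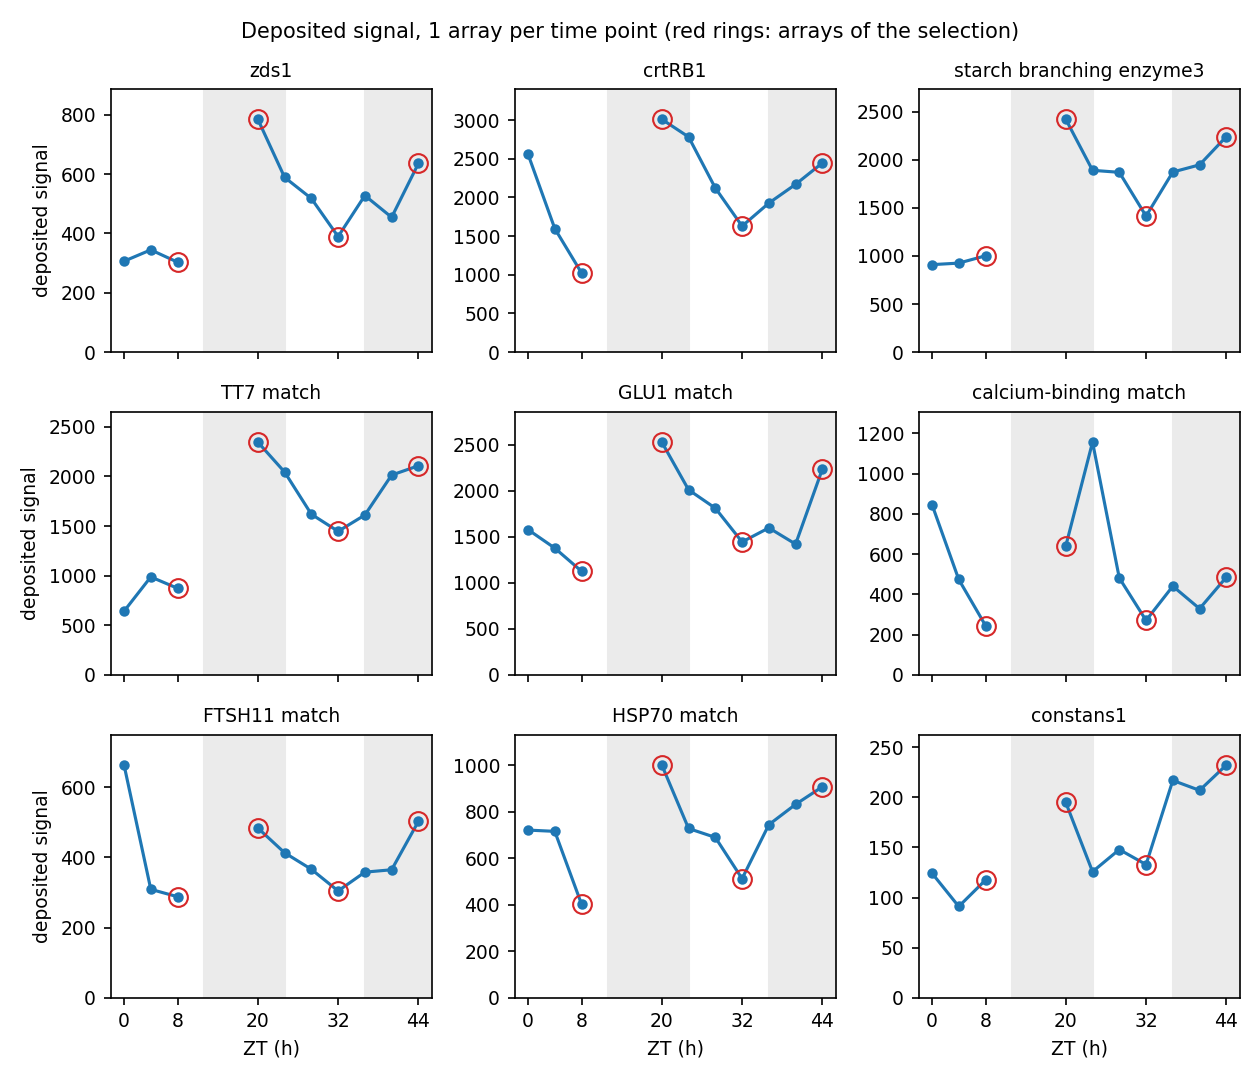
Deposited signal of 9 named members by ZT in h, with 1 array per time point and no error bars because no time point was replicated. Each panel starts at 0, grey marks subjective night and red rings mark the arrays of the selection. The calcium-binding match has its highest signal at ZT24 and the FTSH11 match at ZT0, whereas zds1 and the HSP70 match are highest at ZT20.

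Among the 5 members of nitrogen, sulphur and amino acid metabolism, 3 encode plastid enzymes that take electrons from ferredoxin. Of the 5, the GLU1 match alone met the rule under both other scalings, and NIR, sir and the AOAT2 match met it under neither. GLU1 of Arabidopsis is the ferredoxin-dependent glutamate synthase, which recovers the ammonium released in photorespiration. Its maize match read 1579, 1378 and 1127 at ZT0, ZT4 and ZT8, then 2530.0, 2012, 1812, 1446, 1598, 1422 and 2237 from ZT20 to ZT44. Both late nights were above all other time points, and ZT40, 4 h before the second of them, was among the low values. NIR, the nitrite reductase, read 255, 389 and 216, then 396, 326, 293, 229, 307, 325 and 337. ZT4 lay at the level of ZT20, so this probe set was not confined to a high late night. A second NIR probe set read 57.6 and 37.1 at ZT20 and ZT44, below the required 100, against 39.3 and 24.2 at ZT8 and ZT32. The gene sir encodes sulphite reductase, and its member probe set read 232, 123 and 107, then 200.2, 205, 167, 142, 181, 149 and 213, with the first dawn the highest array. It is of a type that can bind several related transcripts, and another sir probe set with a higher signal read 1184 and 1177 in the late night, against 1298 and 1209 in the afternoon. That probe set had a margin of 0.91, so the late-night pattern of sir was seen with 1 of its 3 probe sets, the last of which was below 100 in the late night.

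The 2 other members of this group transfer or degrade amino acids. The match of AOAT2, an alanine-2-oxoglutarate aminotransferase, had 1562 and 1483 at ZT20 and ZT44, against 967 and 1038 at ZT8 and ZT32. The gene lkrsdh1 encodes the bifunctional enzyme of lysine degradation, and it read 722, 313 and 255, then 585, 454, 535, 411, 627, 545 and 673. Its ZT4 and ZT8 arrays were far below ZT0 on the first day, whereas ZT28 was above ZT24 on the second. The match of glutamine synthetase 2, the plastid isoform in Arabidopsis, which works together with ferredoxin-dependent glutamate synthase, was no member, with 3505 and 2936 in the late night, against 2128 and 2857 in the afternoon.

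The 4 members of plastid gene expression had a highest array 1.44 times the lowest for caf1, 1.87 for caf2, 2.03 for the PTAC2 match and 2.08 for the cp29 match, against a median of 2.08 over all members. CAF1 and CAF2 assist the splicing of group II introns in maize chloroplasts. The signal of caf1 read 328, 284 and 256, then 361, 316, 290.1, 256, 306, 307 and 367, and that of caf2 read 429.9, 393 and 433, then 735, 626, 534, 455, 495, 515 and 692. Both had ZT20 and ZT44 as their highest arrays, and caf1 and the PTAC2 match were no members under either other scaling. PTAC2, known in Arabidopsis as a component of the plastid transcriptionally active chromosome, had a match with 676 and 615 in the late night, against 376 and 423 in the afternoon. The match of the chloroplast RNA-binding protein cp29 was dim, with 145 and 145 in the late night, against 69.6 and 93.7 in the afternoon, and its ZT28 signal of 142 lay at the late-night level. The PTAC2 probe set may also bind related transcripts.

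Membrane enzymes and proteases made up 4 members. CRR6 is needed in Arabidopsis to assemble the chloroplast NDH complex, which cycles electrons around photosystem I. Its match read 506, 373 and 379.7, then 843, 631, 447, 446, 581, 639.5 and 669.7, with both midmorning arrays below both dawns. FTSH11 is an ATP-dependent metalloprotease of Arabidopsis, and its match read 663, 309 and 288, then 484, 413, 366, 305, 358, 365 and 503. Its highest array was the first dawn, which exceeded both late nights. FAD8, a plastid fatty acid desaturase, had 1733 and 1532 in the late night, against 944 and 1091 in the afternoon. The putative zinc metalloprotease had 459 and 529.8 in the late night, against 297 and 327 in the afternoon, and its ZT36 array lay at the level of ZT20. FAD8 and this protease met the rule on deposited signals alone.

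The stress proteins and regulators held the 4 largest margins among the named members. The match of a calcium-binding protein with EF hands, which bind calcium in signalling, had a margin of 1.79. It read 847, 474 and 246, then 641, 1157, 482, 271, 441, 329 and 486, and both dawns were above both late nights. Its highest array was the second dawn. The match of HSP70, a chaperone of Arabidopsis, had a margin of 1.77 and read 721, 716 and 403, then 1001, 728, 689.9, 512, 745, 832 and 908. Its late nights and ZT40 were its highest arrays and its afternoons the lowest. The HSP70 family is large, and its probe sets can share targets.

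TOR encodes a protein kinase that couples growth to nutrients. Its signal was 388 and 383 in the late night, against 224 and 229.7 in the afternoon, and all other arrays lay between 224 and 323. HSFB2A is a heat shock factor of Arabidopsis, and its match read 316, 199.8 and 108, then 253, 196, 202, 137, 152, 209 and 228, with the first dawn highest. SHY2 is an Aux/IAA protein of Arabidopsis, which represses auxin responses. Its match was dim, with 149.5 and 139.5 in the late night, against 99.4 and 89.1 in the afternoon, and it met the rule on deposited signals alone. The match of a cadmium-induced protein had 774 and 634 in the late night, against 333 and 392 in the afternoon, and ZT40 lay between these late nights.

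The 1 member with a clock-related role was constans1 (CONZ1), matched to COL1, a CONSTANS-like protein of the photoperiod pathway in Arabidopsis. It read 124, 91.1 and 118, then 195, 126, 148, 133, 217, 207 and 232, so that the second night from ZT36 to ZT44 was higher than ZT20 and every earlier array. The paper assigns this gene a phase of ZT16, an hour not analysed here. Another CONSTANS-like probe set had 689 and 683 in the late night, against 139.8 and 369.5 in the afternoon, and was dropped because ZT8 was too far below ZT32. The match of REVEILLE 2, a dawn MYB factor of Arabidopsis, read 1233, 504 and 106, then 291, 358, 318, 230.4, 155, 181 and 316 and was no member.

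Transport and other functions accounted for the last 3 named members. The match of the ABC transporter MRP10 had 1024 and 899 in the late night, against 453 and 603 in the afternoon. The match of PDR1, also an ABC transporter, had 215 and 158 in the late night, against 87.6 and 109.6 in the afternoon, and ZT0 equalled the second late night within 4 signal units. The match of an appr-1-p processing enzyme had 344 and 311 in the late night, against 140.3 and 220.5 in the afternoon. For MRP10 and the appr-1-p enzyme ZT4 was above ZT0, whereas for PDR1 it was below. The PDR1 and appr-1-p matches were members on deposited signals alone.

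The dawn and midmorning arrays were not used to choose high late nights, and they allowed a comparison of ZT4 and ZT28 with ZT0 and ZT24. The question was how the members' level in midmorning compares with that at dawn. On quantile-normalized log2 signals the median member was -0.19 in midmorning relative to dawn, with the middle 50% of members between -0.46 and -0.02, and 40 of 51 were lower in midmorning. Over all probe sets tested the median was 0.00 and 49.7% were lower. The median was -0.19 on the second day and -0.22 on the first. On both days 31 members were lower in midmorning, against 27.0% of all probe sets tested, and 8 were lower on the first day only, 9 on the second only and 3 on neither. The members are defined by ZT8 and ZT32 arrays just after the midmorning and by ZT20 arrays just before the second dawn, so a low midmorning relative to dawn lies between values that the rule fixed.

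In the limma fit of these 4 arrays, which left 2 residual degrees of freedom, 0 of the 51 members and 0 of the 10679 probe sets passed an adjusted p of 0.05, a background of 0.0%. At an unadjusted p of at most 0.05, 6 members were lower in midmorning, or 11.8%, against 0.918% of all probe sets tested. No member was higher at that level, against 0.749% of all probe sets. The count of probe sets with both midmorning arrays below both dawn arrays needs no variance, and it was 16 members, or 31.4%, against 11.2% of all probe sets tested. With both midmorning arrays above both dawns there was 1 member, or 1.96%, against 13.3%. These counts depended on single arrays. Without ZT4, 1 member (1.96%) was lower at that unadjusted level, against 0.777% of all probe sets, and the median over members was -0.06. Without ZT24, 10 members (19.6%) were, against 2.73%, and 1 unnamed member passed the adjusted test with -3.17 in log2 and an adjusted p of 0.0479 in limma. That fit holds a single dawn array, assumed to vary like the midmorning arrays, and the member is the unnamed probe set with 762 at ZT24, against 5079.6 at ZT0. With an array left out, fewer arrays have to be separated, and the counts without overlap were 35 members (68.6%) without ZT0, against 24.2% of all probe sets, 16 (31.4%) without ZT4, against 26.3%, 20 (39.2%) without ZT24, against 32.9%, and 36 (70.6%) without ZT28, against 33.7%. Without ZT4 or ZT24 the members' share was thus near that of all probe sets. The actin 3'/5' signal ratio, a sign of RNA quality, was 5.48 and 5.45 at ZT4 and ZT28, against 5.83 and 6.4 at ZT0 and ZT24, with a range of 5.17 to 8.56 over the 10 arrays, and its part in the comparison was not tested.

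The 16 members without overlap comprised 9 named and 7 unnamed probe sets. Lower midmornings beyond the dawn range were seen for the calcium-binding match, crtRB1, sir, the CRR6, FTSH11, SHY2 and HSP70 matches, FAD8 and caf1. For HSP70 the gap between ZT4 and ZT0 was 716 against 721, which is slight. The calcium-binding match had 474 and 482 at ZT4 and ZT28, against 847 and 1157 at ZT0 and ZT24, a log2 difference of -1.07 ± 0.19 (SE) with an unadjusted p of 0.00225 and an adjusted p of 1.0 in limma. For crtRB1 the signals were 1598 and 2121 in midmorning, against 2559 and 2782 at dawn, with a log2 difference of -0.50 ± 0.19 (SE). The sir probe set differed by -0.63 ± 0.20, the FTSH11 match by -0.66 ± 0.25 and the CRR6 match by -0.49 ± 0.17 in log2. These 5 and 1 unnamed member are the 6 below 0.05 before adjustment, and all had an adjusted p of 1.0 in limma.

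**Figure D4:**
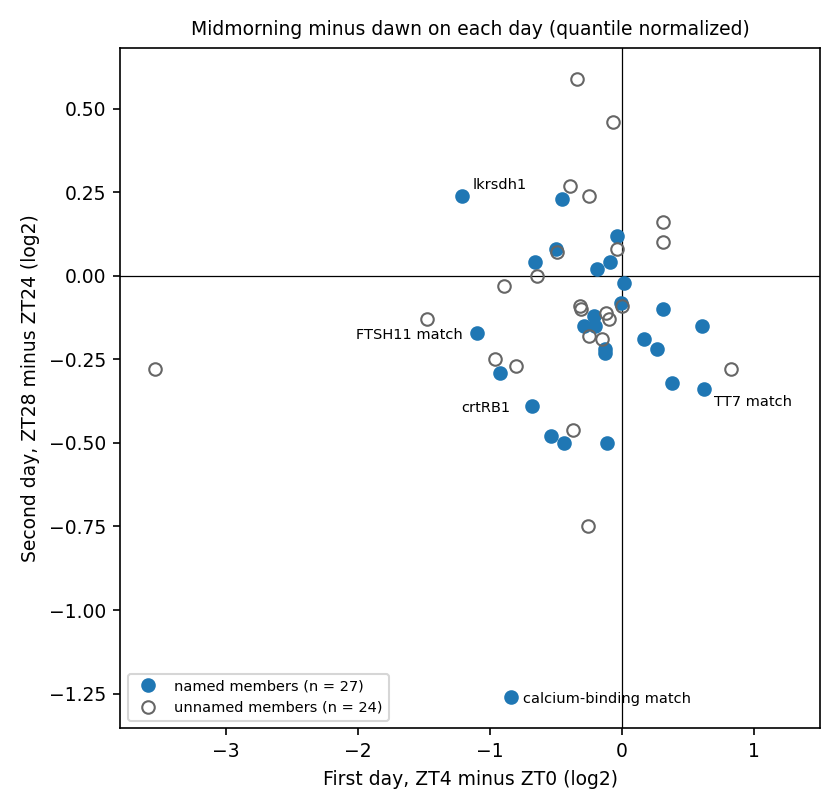
Midmorning minus dawn in log2 deposited signal, with the second day on the vertical axis and the first day on the horizontal axis. Each point is 1 member. The points are not quantile normalized, although the title of the plot says that they are. Members lower on both days lie in the lower left of the plane. On quantile-normalized signals 31 members were lower on both days and 3 on neither, which can differ from the points shown. The unnamed probe set at the far left had 5080 at ZT0.

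Within the second night the members showed no common step from ZT36 to ZT40. On quantile-normalized signals the median ZT40 minus ZT36 difference was -0.01 in log2, against -0.01 over all probe sets tested. At ZT40 1 member, an unnamed probe set, was at least 1.4 times ZT36, or 1.96%, against 2.17% of all probe sets tested. No member had ZT36 at least 1.4 times ZT40, against 1.6%. From ZT40 to ZT44 the median difference was 0.25 and 46 of 51 members were higher at ZT44, a step that the selection favours because ZT44 was one of its arrays. From ZT32 to ZT36 the median was 0.32 and 48 of 51 were higher at ZT36, again next to an array of the selection.

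Dawn signals differed between the days in some members and not in others. At ZT24 11 members, or 21.6%, were at least 1.4 times ZT0, against 8.63% of all probe sets tested. At ZT0 8 members, or 15.7%, were at least 1.4 times ZT24, against 7.7%. Among the 61 mirrored probe sets, with both afternoons above both late nights, these 2 counts were 20 and 18. Differing dawns were thus not particular to the members. The TT7 match was 3.18 times, starch branching enzyme3 2.08 times and zds1 1.92 times as high at ZT24 as at ZT0. The appr-1-p, cadmium-induced and MRP10 matches and caf2 followed with 1.63, 1.61, 1.54 and 1.46 times. On the other side the HSFB2A and FTSH11 matches were at 0.62 times, lkrsdh1 at 0.63 times and the PDR1 match at 0.64 times their first dawn. One unnamed probe set, singled out after its values were seen, had 762 at ZT24, against 5079.6 at ZT0. No test was made for these single arrays. ZT0 came after a dark night and ZT24 after a night in light, and the part of this in the differences was not tested.

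**Figure D5:**
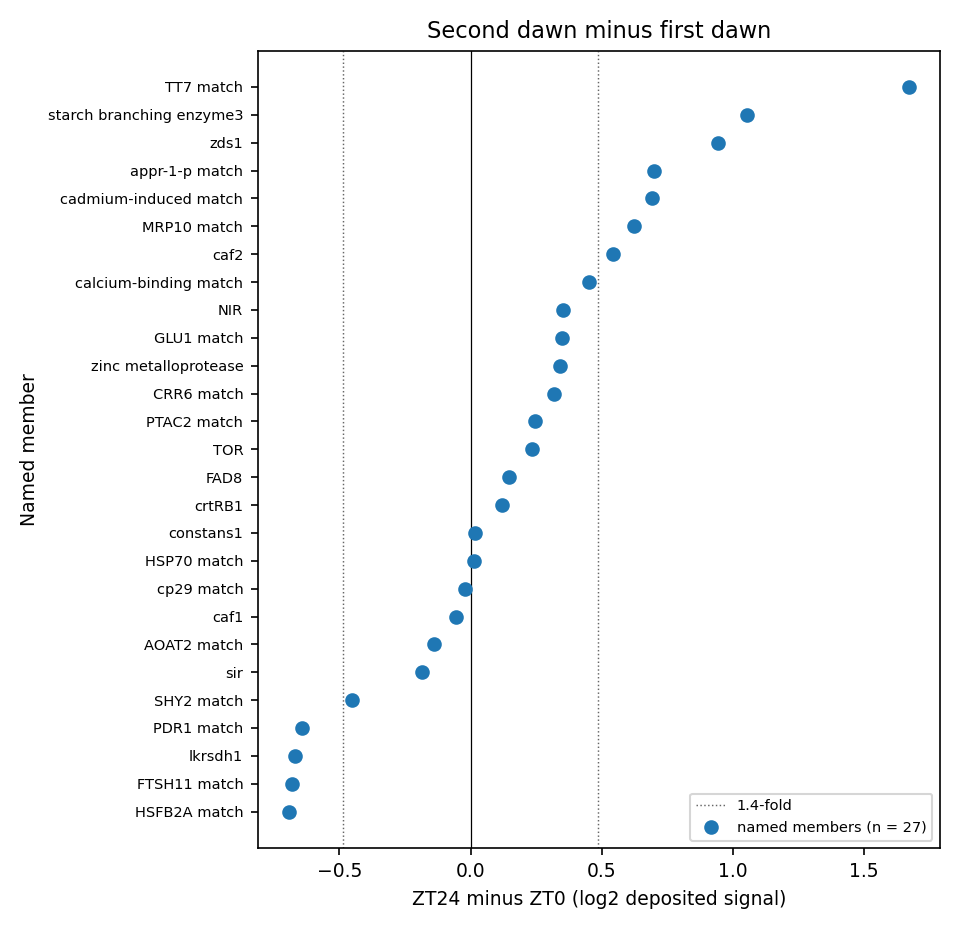
ZT24 minus ZT0 in log2 deposited signal for the 27 named members, with dotted lines at 1.4-fold in either direction and no error bars because each dawn is 1 array. The TT7 match, starch branching enzyme3, zds1, the appr-1-p, cadmium-induced and MRP10 matches and caf2 lie beyond the right line. The HSFB2A and FTSH11 matches, lkrsdh1 and the PDR1 match lie beyond the left line.

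Other times of day also shifted between the days. ZT28 was above ZT4 in 36 of 51 members on quantile-normalized signals, with a median of 0.24 in log2, against 0.01 over all probe sets tested. ZT32 was above ZT8 in 40 of 51 members, with a median of 0.15, against 0.02. ZT44 was below ZT20 in 42 of 51 members, with a median of -0.10, against 0.00, but in 31 of 51 on deposited signals. Since ZT8, ZT20, ZT32 and ZT44 chose the members, these last medians are a description.

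The 27 named members were 1.24% of the 2180 named probe sets tested, whereas all 51 members were 0.478% of the 10679 probe sets tested. Of the 2180 named probe sets, 995 fell by name into 18 groups of genes and 1185 into none. The groups held 23 members among the 995, and the probe sets in no group held 4 among the 1185. The amino acid, nitrogen and sulphur genes held 5 members among 77 probe sets, and 40 of the 77 were lower in midmorning with a median of -0.03 in log2. The RNA processing genes held 4 members among 58, with 29 lower and a median of 0.00. The pigment and isoprenoid genes held 2 members among 29, with 20 lower and a median of -0.13. The clock and photoreceptor genes held 1 member, constans1, among 10, with 6 lower and a median of -0.12. No member was found among 29 genes of light harvesting, photosystems and electron transport, 23 of carbon fixation and photorespiration, 47 of translation, 40 of lipids, waxes and membranes, 23 of chromatin and cell cycle or 38 of cytoskeleton and vesicle traffic. The share of members among grouped probe sets, 23 of 995, is higher than 1.24%. The groups were written with earlier results of these data known, so that higher share is no result about them. At 23 of 995 or at 1.24%, groups of these sizes would hold about 1 member or fewer. The counts of 0 are therefore not a result about the groups. FAD8 and the CRR6, cadmium-induced and appr-1-p matches entered no group. In all 18 groups 0 probe sets passed the adjusted limma p of 0.05 for midmorning minus dawn.

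Of the 24 unnamed members, 19 were lower in midmorning with a median of -0.21 in log2, and 7 had no overlap with dawn, beside 21 and 9 of the 27 named members. Their mean signals ranged from 93.7 to 2670 and their margins from 1.402 to 1.928. The sources used here do not pair these probe sets with a gene.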

How the data were processed

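Signals of 10 Affymetrix Maize Genome Arrays were analysed, 1 per time point, each from cRNA of 3 pooled replicates of 5 seedlings, and samples were grouped by the time in their labels. The deposited values are unlogged MAS5 signal intensities, a tool that the submitters' processing notes name. The MAS5 version and scaling target are not given in the sources used here, and the paper's own analysis used RMA values of the same hybridizations. For arrays, precision is limited by their number.

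The 113 control probe sets were left out and 2968 values below 1 were set to 1. The members and gene lists were chosen with earlier results of these data known, and the role groups and the dawn comparison were added after the values were seen. Probe sets with at least 100 at ZT20 and ZT44 (10679) were tested. Log2 signals were quantile normalized, and a linear model was fitted in R 4.3.3 with limma 3.58.1. The fit used eBayes with an intensity trend on 4 arrays, with 3.1 prior degrees of freedom and Benjamini-Hochberg adjustment at 0.05. It was first run on simulated data with independent errors, where only the mean size of a planted change had to be recovered. That check does not cover p-values from arrays 24 h apart. Arrays of a time of day 24 h apart stood in for repeats, so p-values measure only the spread between them. The dawn arrays are not equal repeats, because ZT0 came after a dark night and ZT24 after a night in light. Margins, counts without overlap and counts past 1.4-fold use deposited signals, whereas medians of differences, and the numbers of members higher or lower beside them, use quantile-normalized signals unless stated. Other steps used Python 3.11.15, numpy 2.4.6, pandas 2.3.3 and matplotlib 3.10.9.

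Names came from the platform annotation for 10 members, of which 9 were found in the gene table of Zm-B73-REFERENCE-NAM-5.0, and from the held part of the study's table of Arabidopsis and rice matches for 21, with 4 in both. The rule for named genes took up to 4 named members per list by mean signal, the 10 largest margins, the 10 lowest limma p values, 3 probe sets on each side of the 1.4-fold limit and clock genes. Any other named member or pathway gene in the text was chosen after its values were seen. Genes were sorted into 18 lists by name. The alternatives were other scalings, filters of 50 and 200, a pseudocount of 32, other ratios of the rule, other variance settings, day as a block and each array left out. Promoter motifs and other sequences were not analysed here.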

Additional observations from a re-analysis of the deposited data

Results flagged for a closer look

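Among the named members, 2 had morning changes of at least 1.2-fold in opposite directions on the days, on deposited signals. By sign alone opposite directions were common. On quantile-normalized signals 8 of all members were lower on the first day only and 9 on the second only. The difference between the days was not tested because each is 1 array against 1. The TT7 match had a log2 difference of -0.34 between ZT28 and ZT24 on the second day, against 0.62 between ZT4 and ZT0 on the first. The match of the appr-1-p processing enzyme had -0.32 on the second day, against 0.38 on the first. Both transcripts also had a higher second dawn than first dawn.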

How the results depend on the processing

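The number of members depended on the scale and the ratio. Against 51 on deposited signals, 33 probe sets met the rule after quantile normalization (28 of them members) and 22 after median scaling. A ratio of 1.3 gave 140 probe sets, 1.5 gave 20 and 2 gave 0, so no comparison could be made with that last choice. The count stayed within 1.5 times of 51 with a night signal of 50 or 200, without the condition on ZT8 and ZT32 and without the exclusion of lasting risers. Midmorning minus dawn had a median over members between -0.19 and -0.17 under the other scalings, filters, pseudocount and variance settings, and between -0.32 and -0.06 with each array left out. The probe sets passing the adjusted test were 0 under all these settings apart from the arrays left out, where they were 0 to 8, with 0 to 1 members among them. With day as a block, 12 members (23.5%) were lower at an unadjusted p of at most 0.05 in place of 6, against 3.27% of all probe sets, and with each array left out 1 to 10 members were (1.96% to 19.6%), against 0.487% to 2.73%. The 16 members below dawn without overlap became 16 to 36 with each array left out (31.4% to 70.6%), against 24.2% to 33.7%, and the low end, without ZT4, stands against 26.3%. Members above dawn without overlap were 3 after median centring in place of 1. Members with ZT40 at least 1.4 times ZT36 were 3 after quantile normalization and 2 after median centring in place of 1. Why these values moved was not tested, other than that fewer arrays make an overlap less likely. Among the 27 named members the sign of midmorning minus dawn turned for 1 on deposited signals and 2 after median centring. With an array left out the sign turned for further named members, so their direction can rest on single arrays. For zds1 it ran from -0.50 without ZT0 to 0.44 without ZT24, and for the TT7 match from -0.66 to 0.95. Others kept their sign, such as crtRB1 with -0.70 without ZT28 and -0.29 without ZT4. The labels give all arrays 1 replicate number, so replicates could not be paired. The only pairing available was by day, and the fit with day as a block used it.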
